A study of Arabidopsis thaliana with 12 samples.

Results

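The genes described here are the cyclins, cyclin-dependent kinases (CDKs), CDK inhibitors, E2F factors and replication licensing genes of the Arabidopsis thaliana root. They were chosen by symbol alone (names beginning CYCA, CYCB, CYCD, CDK, ICK, KRP, SMR, E2F, MCM, ORC or CDC, with the class letter or number that follows) and by an FPKM (fragments per kilobase of transcript, scaled to library size) of at least 1 in at least 3 of the 12 libraries. Of 23719 listed genes 70 had such a symbol and 64 passed the FPKM filter. No gene matched under an SMR name. RNA sequencing was run on roots of seedlings kept in the cold and then germinated for 5 days at 22 °C on plates of MS medium. The 4 groups, of 3 libraries each, were Col (the reference accession) on MS, Col after 3 h with methyl jasmonate (MeJA, an ester of the wound hormone jasmonate), the erf114 mutant on MS and erf114 after 3 h with MeJA. The treatment protocol gives 15 µM MeJA and the design text of the series gives 50 µM, so the dose is not settled. The mutant is named for ERF114, a transcription factor gene. The labels give neither its allele nor its lesion. Nor do they state that the replicates of a group were grown separately. The p-values therefore reflect sample-to-sample spread that could be technical.

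Cyclins bind and activate CDKs, and the identity of the bound cyclin changes through the cell cycle. D-type cyclins with CDKA act in G1 on the retinoblastoma protein, which releases E2F factors and with them the genes of S phase. Origins of replication are licensed by the origin recognition complex (ORC), CDC6 and the MCM helicase, A and B cyclins with B-type CDKs drive G2 and mitosis, and the anaphase promoting complex (APC/C) ends mitosis. In the Arabidopsis root these divisions are concentrated in the meristem, and jasmonate is known to slow the growth of the primary root.

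The promoters of these genes carried short sequence words that differed between phases, and examples are printed because the choice of members did not use this property. Windows ran from 250 bases before to 50 bases after the gene start in RefSeq's TAIR10.1 and both strands were searched. The 8 words of the E2F element (TTTCCCGC, TTTGGCGC, TTTCCCGG, TTTGGCGG, TTTCGCGC, TTTGCCGC, TTTCGCGG and TTTGCCGG) occurred in 3.61% of the promoters of 18313 tested genes, and in 13 of the 19 promoters of the replication licensing and S-phase members (68.4%). They occurred in 6 of the 8 MCM promoters, in 4 of the 6 ORC promoters, in 2 of the 8 D-type cyclin promoters and in 0 of the 18 promoters of the G2 and mitosis members. Each line below reads along the strand of the gene, with 1 E2F word or its reverse complement in capitals and the position of its first base counted from the gene start.
MCM3 (chr5:18773746-18773777, minus strand, position -59): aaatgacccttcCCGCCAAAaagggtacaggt
MCM4 (chr2:7130745-7130776, minus strand, position -35): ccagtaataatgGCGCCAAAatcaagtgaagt
MCM6 (chr5:18010694-18010725, minus strand, position -46): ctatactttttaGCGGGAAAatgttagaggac
ORC2 (chr2:15758557-15758588, plus strand, position -32): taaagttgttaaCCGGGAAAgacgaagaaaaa
ORC3 (chr5:5474304-5474335, plus strand, position -50): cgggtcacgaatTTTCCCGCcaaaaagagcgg
CYCA3;4 (chr1:17306509-17306540, plus strand, position -53): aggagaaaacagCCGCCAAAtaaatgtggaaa

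In the ORC3 window a second E2F word, on the other strand, overlaps the one in capitals. The word AACGG, the core of the mitosis-specific activator element that MYB3R factors bind, was spread more widely. It occurred in 26% of all promoters, in 7 of 8 promoters of B-type cyclins (87.5%), in 11 of 18 of all G2 and mitosis members (61.1%), in 8 of 19 of the replication and S-phase members (42.1%) and in 1 of 8 of D-type cyclins (12.5%). By phase the share was highest for the CDK inhibitors, at 5 of 6 promoters (83.3%). The lines below show 1 copy in each of 5 B-type cyclins, with AACGG or its reverse complement in capitals.
CYCB1;1 (chr4:17624353-17624381, minus strand, position -61): aaaacaatcagaCCGTTggggttcattta
CYCB1;3 (chr3:3627296-3627324, minus strand, position -39): agttcatcatccAACGGctagaagtctaa
CYCB2;1 (chr2:7663958-7663986, plus strand, position -85): ccctcatgatccAACGGttatattctaaa
CYCB2;2 (chr4:16901460-16901488, plus strand, position -124): ccttcatgatccAACGGtcatcttaatca
CYCB2;3 (chr1:7137878-7137906, minus strand, position -66): tggcgttgatccAACGGctgagatgaact

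In the 3 B2 windows the same letters, tgatcc, stand directly before the core. The G-box CACGTG, a word that MYC factors of the jasmonate pathway bind, occurred in 4 of the 64 members' promoters (6.25%) and in 8.92% of all promoters. These matches are letters in a window and no binding was measured.

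The members were expressed at moderate levels. The median of their mean FPKM over the 12 libraries was 6.65, against 11.2 for the 18326 genes tested, with 36 members at 5 or above and 10 below 2. The highest was CDC48, an ATPase that extracts ubiquitinated proteins, at 210.6 to 318.3 FPKM, followed by the gene named CDC25, which encodes an arsenate reductase, and by CDKA;1 (listed as CDC2). The lowest was MCM9 at a mean of 0.873. When the members were ranked by mean level, each of these 3 highest lay outside the range of the next gene over the 12 libraries, and every other pair of neighbours in the order overlapped. MCM9 passed the filter with 3 libraries at 1 FPKM or more, and CYCA2;1, an A-type cyclin at 0.40 to 1.34 FPKM, missed it with 2 libraries. The other 5 genes below the filter were CDC20.4, CYCA1;2, CYCB1;5, CYCD6;1 and ORC1A. In RNA from whole roots, fewer dividing cells and less RNA per dividing cell cannot be told apart.

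The libraries held 20546417 to 20897031 estimated counts each. ERF114, the mutated gene, was at 2.53 ± 0.405 FPKM (SD, n = 3) in Col after MeJA and at 0.60 ± 0.0866 in erf114 after MeJA, and was at most 0.15 FPKM in any library on MS. The difference between genotypes after MeJA, -1.95 ± 0.39 (SE) on the log2 scale, did not pass (adjusted p = 0.0713, edgeR). In erf114 the gene still rose with MeJA (log2 change 4.2, adjusted p = 0.00151, edgeR). VSP2, a jasmonate marker, was at 1.67 to 2.60 FPKM on MS and at 205.9 to 282.8 after MeJA. Of the 64 members 26 had their lowest FPKM in 1 library, Col MS replicate 1, and 19 in erf114 MeJA replicate 3. In the first of these libraries, genes with transcripts over 2500 bases had a median log2 difference of -0.43 from the other 2 libraries of the group and those of up to 1000 bases one of 0.44. In the second these medians were -0.19 and 0.17. Deposited FPKM values also fell with MeJA for the median gene, by 0.05 on the log2 scale in Col and by 0.28 in erf114, whereas TMM scaling, used for every fold change below, sets the median gene near 0. Markers of the root meristem (8 genes, none at 0) summed to 64.3 to 77.2 FPKM in Col on MS, 60.1 to 62.2 in Col after MeJA, 61.6 to 70.1 in erf114 on MS and 46.8 to 59.5 in erf114 after MeJA. Markers of shoot photosynthesis (5 genes, none at 0) summed to 125.5 to 448.4, 113.1 to 282.0, 225.0 to 495.2 and 76.8 to 354.8 FPKM in the same order. The part of these differences in the results below was not tested.

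After MeJA, 7 of the 64 members passed in Col, 3 higher and 4 lower (10.9%), by edgeR's quasi-likelihood F-test with adjustment over all genes tested. Of all genes 22% passed, 10.4% higher and 11.5% lower. In erf114 5 members passed, 3 higher and 2 lower (7.81%), against 18.8% of all genes (10.2% higher and 8.59% lower). As the mean of both genotypes, a contrast over all 12 libraries, 10 members passed, 4 higher and 6 lower (15.6%), against 29.2% of all genes (14.1% higher and 15.1% lower). At an unadjusted p under 0.05 the members numbered 15 in Col, 11 in erf114 and 17 for the mean, where 33.8%, 28.3% and 37.9% of all genes lay. On unscaled FPKM with limma the calls became 1 higher and 6 lower in Col, 1 and 14 in erf114 and 1 and 15 for the mean. That setting changes the scaling and the test together, and median-of-ratios scaling in edgeR gave 3 and 4, 3 and 2, and 5 and 6. Fitted log2 changes of the members had a median of 0.14 in Col and -0.03 in erf114, while the median over all genes was 0.00 and -0.01. In the edgeR fit of all libraries no member changed by as much as 2-fold in a MeJA contrast. Some members did so in alternatives. CYCD3;1 in erf114 reached -1.07 with limma on log2(FPKM + 1), -1.01 without the 2 libraries that stood apart and -1.21 at the lowest. KRP7 (listed as ICK5) reached -1.28 in erf114 and CYCB3;1 reached 1.08 in Col. Of all genes, 10.2% in Col, 9.39% in erf114 and 10% for the mean passed with at least a 2-fold change. FPKM ranges of MeJA and MS libraries were apart for 13 members in Col and 25 in erf114, against 38.6% and 48.8% of all genes. Lower after MeJA were 9 of those 13 members and 24 of those 25, as were 4873 of 7078 and 7516 of 8945 such genes in all on these unscaled values. The 2 genotypes' contrasts share no library, but both enter the mean.

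Among the D-type cyclins 1 gene rose and another fell in both genotypes, and these were the members with the smallest adjusted p-values in each. CYCD1;1 (AT1G70210, chr1:26439556-26443007) was at 13.17, 16.28 and 17.22 FPKM in Col on MS and at 24.83, 27.42 and 28.49 after MeJA. In erf114 it was at 15.75, 15.84 and 14.51 on MS and at 19.85, 21.40 and 19.89 after MeJA. All 6 MeJA libraries lay above all 6 MS libraries. The log2 fold change was 0.86 ± 0.09 (SE) in Col, or 1.82-fold (adjusted p = 2.95e-05, edgeR), and 0.71 ± 0.09 in erf114, or 1.64-fold (adjusted p = 0.00014).

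CYCD3;1 (AT4G34160, chr4:16357421-16359565), a cyclin known to respond to cytokinin and to promote division, moved the other way. It was at 9.19, 10.55 and 9.78 FPKM in Col on MS and at 4.44, 5.71 and 5.13 after MeJA, and at 10.65, 11.64 and 10.80 in erf114 on MS and 5.09, 4.15 and 4.98 after MeJA. Every MeJA library lay below every MS library. The log2 fold change was -0.89 ± 0.15 in Col (adjusted p = 0.000745, edgeR) and -0.90 ± 0.15 in erf114 (adjusted p = 0.000709), a fall of 1.85-fold and 1.87-fold. Both genes passed in each of the 23 alternative analyses of each genotype. The promoter of the first held none of the 3 words searched, and that of the second held 1 AACGG, shown here in capitals.
CYCD3;1 (chr4:16357264-16357292, plus strand, position -145): ttaactttaagaAACGGaacttatcggcg

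The other members of the D3 group did not share one pattern. CYCD3;2 was at 26.6 to 32.1 FPKM in Col on MS and 28.1 to 29.4 after MeJA, with a log2 fold change of 0.01 (95% interval -0.30 to 0.33). CYCD3;3 was at 24.94, 28.95 and 28.63 FPKM in Col on MS and 22.84, 19.75 and 21.02 after MeJA, and at 26.82, 27.64 and 25.07 in erf114 on MS and 15.70, 16.97 and 19.03 after MeJA. The groups did not overlap within either genotype. In the edgeR fit of all libraries the change of -0.31 in each genotype passed only as their mean (-0.31 ± 0.09, adjusted p = 0.0284), a call lost in 6 of 22 alternatives. Within a genotype CYCD3;3 passed in 2 of 23 alternatives in Col and in 4 of 23 in erf114. CYCD4;2, of the D4 group, had log2 changes of -0.49 in Col and -0.51 in erf114. In the fit of all libraries it likewise passed only as the mean, at -0.50 (adjusted p = 0.0144, edgeR). Within a genotype CYCD4;2 passed in 1 of 22 alternatives in Col and in 2 of 22 in erf114. Its values were 2.35, 2.40 and 3.17 FPKM in Col on MS, 1.85, 1.92 and 1.67 in Col after MeJA, 2.02, 2.30 and 2.43 in erf114 on MS and 1.43, 1.35 and 1.06 in erf114 after MeJA. Again no MeJA value reached the MS range of the same genotype. The remaining D cyclins (CYCD2;1, CYCD4;1 and CYCD5;1) did not pass in any comparison, with fitted log2 changes of -0.22 to 0.40 for MeJA within a genotype. Both ends of that range belong to CYCD2;1, whose interaction of -0.62 ± 0.42 also did not pass.

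**Figure D1:**
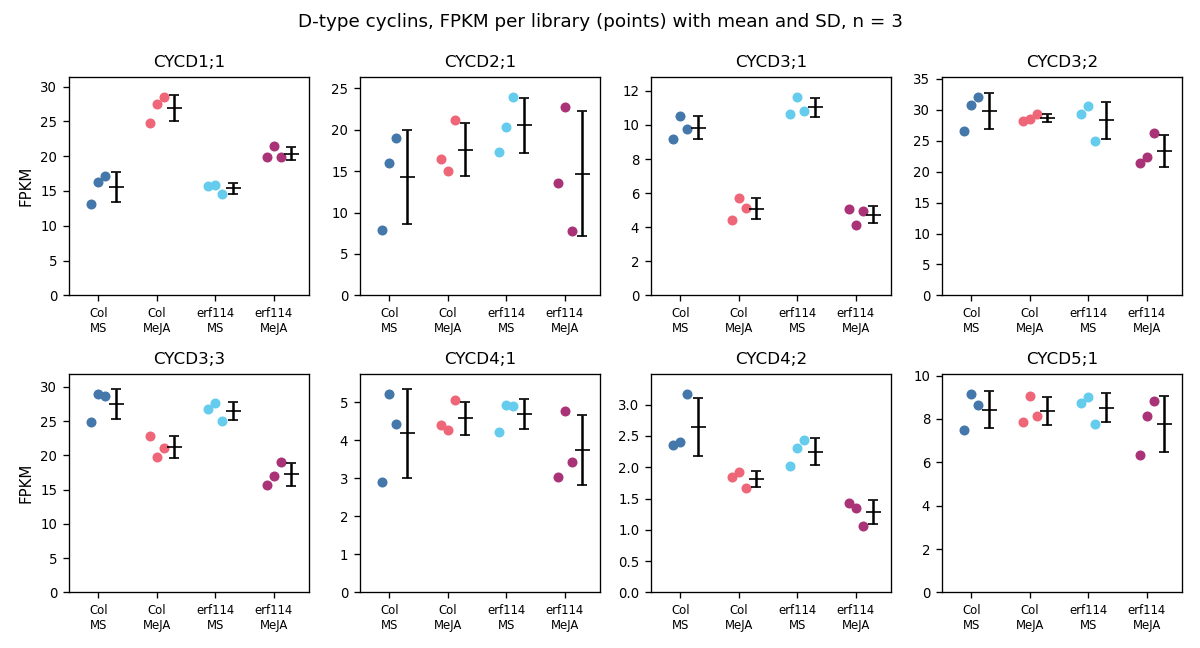
Deposited FPKM (y axis) of the 8 D-type cyclins in each library, by group (x axis), with the mean and SD (n = 3) beside the points. CYCD1;1 is higher in every MeJA library than in every MS library. CYCD3;1, CYCD3;3 and CYCD4;2 are lower in every MeJA library than in every MS library, and the remaining cyclins overlap.

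The partners of the D cyclins in G1 did not pass in the edgeR fit of all libraries. CDKA;1, the main CDK of G1 and S phase, was at 49.17, 55.08 and 56.48 FPKM in Col on MS, at 49.87, 46.76 and 45.32 in Col after MeJA, at 56.77, 54.21 and 58.09 in erf114 on MS and at 46.02, 46.95 and 45.65 in erf114 after MeJA. FPKM in erf114 separated by treatment, but on the TMM scale the log2 change was 0.02 (95% interval -0.23 to 0.27) there and -0.11 (-0.36 to 0.14) in Col. The E2F factors were E2FA (listed as E2F3), with log2 changes of -0.24 in Col and 0.03 in erf114, and E2FB (listed as E2F1), with 0.55 and 0.00 (95% interval in Col -0.32 to 1.43). E2FB was at 0.50 FPKM in Col MS replicate 1 and at 2.31 and 1.92 in the other 2 libraries of that group.

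Of the 6 CDK inhibitors of the KRP family, which bind and block cyclin-CDK complexes, 1 fell in Col. KRP5 (listed as ICK3), an inhibitor expressed in roots, was at 13.23, 14.60 and 14.50 FPKM in Col on MS and at 7.56, 10.55 and 8.11 after MeJA. In erf114 it was at 12.74, 15.12 and 13.69 on MS and at 9.48, 13.66 and 10.08 after MeJA. The groups were apart in Col and overlapped in erf114. The log2 change was -0.63 ± 0.15 in Col (adjusted p = 0.0101, edgeR) and -0.02 ± 0.15 in erf114 (adjusted p = 0.96). The test of this difference between genotypes gave 0.61 ± 0.22 with an unadjusted p of 0.0145, which did not pass after adjustment (0.637), so the inhibitor was not shown to respond differently in the mutant. Without Col MeJA replicate 3 the change in Col gave an adjusted p of 0.0539. For the mean of both genotypes KRP5 passed at -0.33 (adjusted p = 0.0376, edgeR), a call lost in 12 of 22 alternatives. KRP3 (listed as ICK6) had log2 changes of 0.57 and 0.46 in the 2 genotypes and an adjusted p of 0.0508 for their mean. KRP7 (listed as ICK5) and KRP1 (listed as ICK1) had fitted changes of -0.46 and -0.42 in Col and -0.87 and -0.52 in erf114. None of these passed in the fit of all libraries. In erf114 the FPKM of both genes were lower after MeJA, without overlap. KRP7 passed in erf114 without erf114 MeJA replicate 2 (adjusted p = 0.049, edgeR). For the mean of both genotypes KRP7 passed in 3 of 21 alternatives and KRP1 in 2 of 21. KRP2 and KRP6 were within 0.31 of 0 in both genotypes.

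**Figure D2:**
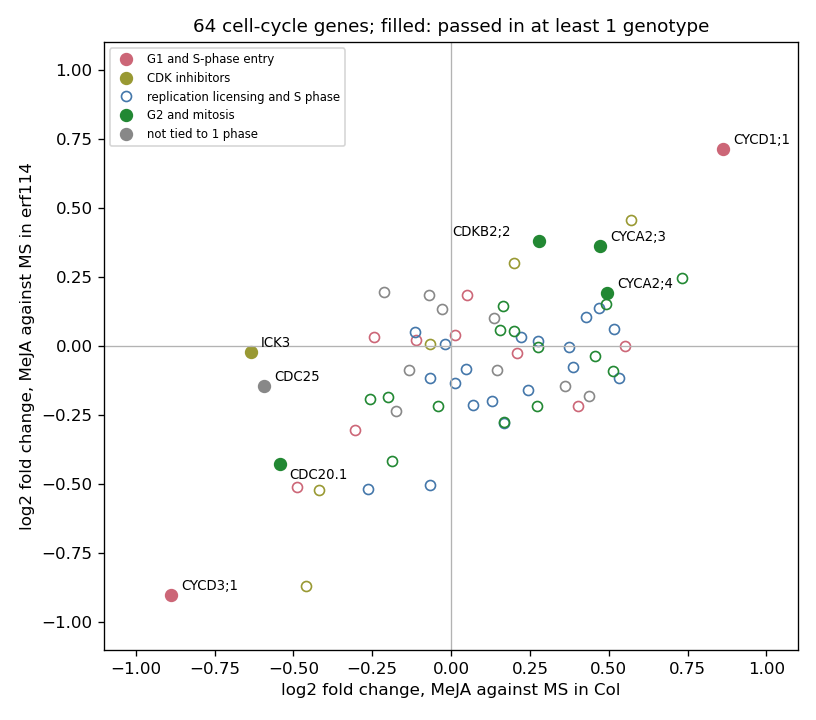
Log2 fold change of MeJA against MS in Col (x axis) and in erf114 (y axis) for the 64 genes, coloured by phase, with filled points for genes that passed in at least 1 genotype. CYCD1;1 and CYCD3;1 lie at opposite corners, the replication genes hold no filled point, and every point is within 1 of 0 on both axes.

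None of the 19 replication licensing and S-phase members passed in any of the 6 contrasts in the edgeR fit of all libraries. In edgeR 1 of the 19 had an unadjusted p under 0.05 for MeJA in Col (ORC3, 0.39 ± 0.16) and 1 for MeJA in erf114 (ORC5, -0.50 ± 0.17, adjusted p = 0.058). The ORC subunits, which mark the origins, kept within a log2 change of -0.07 to 0.39 in Col. ORC5 was at 3.69, 3.63 and 4.01 FPKM in erf114 on MS and at 1.72, 2.57 and 2.24 after MeJA, with no overlap. It had an adjusted p of 0.0447 in DESeq2 and 0.0362 without Col MS replicate 1. In Col the same gene was at 2.41, 4.00 and 3.6 FPKM on MS and at 2.71, 3.24 and 3.00 after MeJA, which overlapped. CDC6, the loading factor, and CDC45, which joins the active helicase, had changes of 0.13 and 0.05 in Col and -0.20 and -0.08 in erf114. The A3 cyclins, which are expressed in S phase, had changes of -0.28 to 0.28 in either genotype. Limma on log2(FPKM + 1) called CYCA3;2 (-0.57, adjusted p = 0.0305) and ORC4 (-0.38, adjusted p = 0.0451) in erf114. For the mean of both genotypes MCM9 passed with the replicate block and length correction together (-0.38, adjusted p = 0.0412, edgeR).

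The MCM genes varied widely between libraries of 1 group. MCM5, a subunit of the replicative helicase, was at 1.64, 6.99 and 5.80 FPKM in Col on MS and at 4.60, 5.20 and 5.71 after MeJA, and at 4.15, 6.08 and 6.84 in erf114 on MS and 3.77, 6.23 and 2.75 after MeJA. Its lowest value was that of Col MS replicate 1 and its next lowest that of erf114 MeJA replicate 3. MCM2, MCM3 and MCM6, other subunits of the hexamer, were at 1.44, 0.60 and 0.45 FPKM in Col MS replicate 1, against 5.19, 3.26 and 2.01 in replicate 2. The counts behind these values were 86, 30 and 24 in replicate 1 and 307, 161 and 106 in replicate 2. All 8 MCM genes lay below the mean of the other 2 Col MS libraries in replicate 1, with a median log2 difference of -1.43, and all 8 did so in erf114 MeJA replicate 3 (-0.57) and in erf114 MS replicate 1 (-0.61). After removal of each library's trend with transcript length the first of these medians was -1.02. The median transcript of the MCM genes was 2766 bases long, against 1702 for all genes tested, and the part of length in these differences was not tested beyond this correction. MCM10, a replication initiation factor with a transcript of 1608 bases, was at 0.62 FPKM in Col MS replicate 1 and at 3.25 and 2.84 in the other 2 libraries. Summed over the 8 genes, FPKM was 10.9, 32.9 and 28.3 in Col on MS, 22.3, 28.2 and 29.6 in Col after MeJA, 21.6, 30.7 and 31.7 in erf114 on MS and 19.9, 30.8 and 14.2 in erf114 after MeJA.

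**Figure D3:**
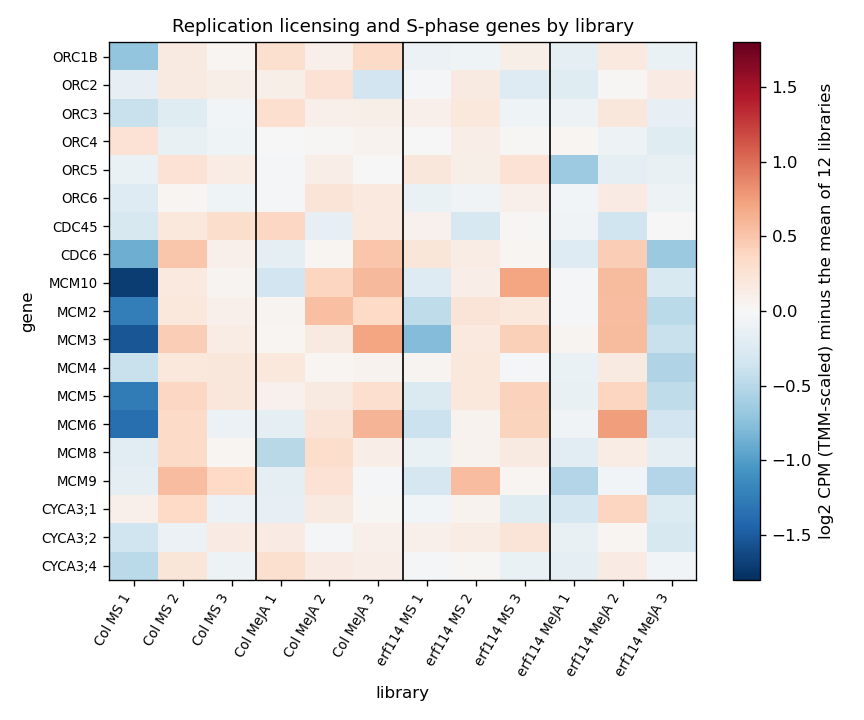
TMM-scaled log2 CPM (counts scaled to library size) of the 19 replication licensing and S-phase genes (rows) in the 12 libraries (columns), as the difference from the mean of each gene over all libraries. The darkest cells are those of MCM genes in Col MS replicate 1 (MCM10, MCM3, MCM6, MCM5 and MCM2), and each group holds cells above and below 0.

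The fitted MeJA response of the MCM genes changed when these libraries were left out. With all libraries the median log2 change of the 8 genes in Col was 0.34, with 6 above 0. Without Col MS replicate 1 it was -0.03, with 4 above 0. In erf114 the median was -0.11 with all libraries and 0.04 without erf114 MeJA replicate 3. Col MeJA replicate 1, kept in these fits, also had 7 of 8 MCM genes below the other 2 libraries of its group (median -0.40). In erf114 MeJA replicate 1, 7 of 8 lay below the mean of the other 2 libraries (-0.14). Replicate 1 was thus below that mean for most MCM genes in every group. It was not the lowest library in erf114 after MeJA, where summed MCM FPKM was 19.9 in replicate 1 and 14.2 in replicate 3. The part of the replicate number in these medians was not tested. The intervals were wide. For MCM2 the change in Col was 0.52 (95% interval -0.29 to 1.32) and for MCM3 0.43 (-0.60 to 1.45), so a modest rise or fall was not detectable at this spread. MCM4, the MCM gene of highest level, was better determined at 0.07 (-0.36 to 0.50). MCM7, which has the symbol PRL and was added after its values were seen, had changes of 0.14 ± 0.19 in Col and -0.10 ± 0.19 in erf114, neither of which passed.

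**Figure D4:**
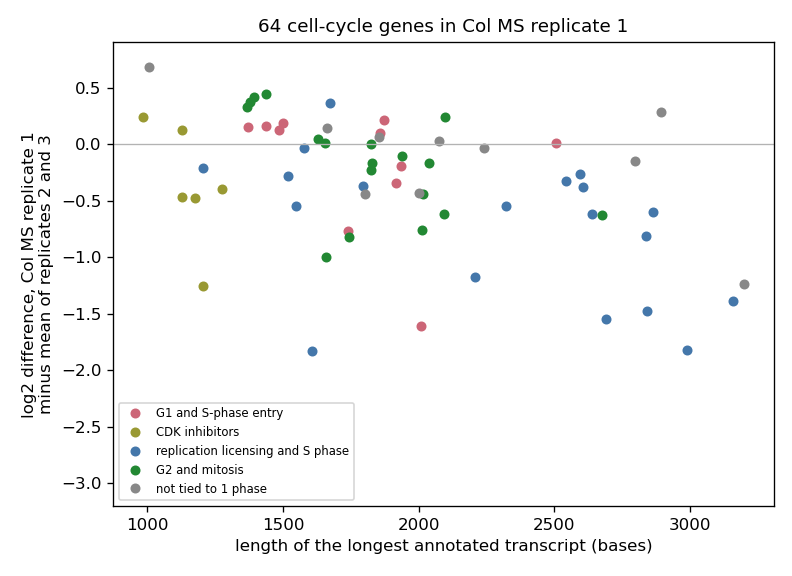
Log2 difference between Col MS replicate 1 and the mean of replicates 2 and 3 (y axis, TMM-scaled CPM) against the length of the longest annotated transcript (x axis, bases) for the 64 genes, coloured by phase. Of the 19 replication genes 18 lie below 0, and the short B-type CDKs lie above 0.

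Among the 18 G2 and mitosis members, 2 A2 cyclins rose in Col and 1 activator of the APC/C fell in both genotypes. CYCA2;3 (AT1G15570, chr1:5361865-5365559), known to restrain endoreduplication, was at 6.51, 10.26 and 8.59 FPKM in Col on MS and at 10.13, 12.08 and 11.06 after MeJA. In erf114 it was at 7.88, 7.78 and 8.16 on MS and at 8.06, 8.84 and 7.89 after MeJA. FPKM ranges overlapped in both genotypes. On the TMM scale its log2 CPM in erf114 was 3.68, 3.59 and 3.69 on MS and 3.98, 3.98 and 4.09 after MeJA, which did not overlap. The log2 change was 0.47 ± 0.10 in Col (adjusted p = 0.00561, edgeR) and 0.36 ± 0.10 in erf114 (adjusted p = 0.0297). With limma on log2(FPKM + 1), which changes scaling and test together, the values were 0.37 in Col (adjusted p = 0.0932) and 0.05 in erf114 (adjusted p = 0.794). The call was lost in 2 of 23 alternatives in Col and in 11 of 23 in erf114. CYCA2;4 was at 4.46, 6.6 and 6.28 FPKM in Col on MS and at 6.55, 9.13 and 7.47 after MeJA, and at 6.03, 6.67 and 5.95 in erf114 on MS and 5.24, 6.67 and 5.41 after MeJA. It rose by 0.49 ± 0.13 in Col (adjusted p = 0.0162) and had a change of 0.19 ± 0.13 in erf114 that did not pass. With the same limma setting its adjusted p in Col was 0.14. For the mean of both genotypes CYCA2;3 passed at 0.42 (adjusted p = 0.000839, edgeR) and CYCA2;4 at 0.34 (adjusted p = 0.013). Each of these calls was lost in 2 of 22 alternatives, both with limma. CYCA1;1, at 5.73 to 9.30 FPKM, had changes of 0.20 in Col and 0.05 in erf114 and did not pass.

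Of the B-type CDKs, kinases found in plants and active from G2 to mitosis, the B2 kinases were among the most evenly expressed members. CDKB2;1 was at 36.82 to 44.97 FPKM over all 12 libraries. CDKB2;2 was at 18.76, 18.16 and 18.13 FPKM in Col on MS and 20.39, 23.05 and 21.01 after MeJA, and at 18.77, 19.91 and 19.67 in erf114 on MS and 20.55, 21.92 and 19.00 after MeJA. The Col groups were apart and the erf114 groups overlapped. It passed in erf114 (0.38 ± 0.12, adjusted p = 0.0403, edgeR) and not in Col (0.28 ± 0.12, adjusted p = 0.117). Without Col MS replicate 1 it passed in Col at 0.43 (adjusted p = 0.00486), and the call in erf114 was lost in 12 of 23 alternative analyses. For the mean of both genotypes CDKB2;2 passed at 0.33 (adjusted p = 0.00927, edgeR), a call lost in 2 of 22 alternatives, both with limma. The B1 kinases had changes between -0.26 and -0.18 in both genotypes and did not pass in edgeR. Their unscaled FPKM were lower after MeJA in both genotypes, without overlap. Limma on log2(FPKM + 1) called CDKB1;1 (-0.48, adjusted p = 0.005) and CDKB1;2 (-0.45, adjusted p = 0.00556) in erf114. In Col the same setting called CDKB1;1 (-0.31, adjusted p = 0.0492).

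The B-type cyclins, the partners of mitotic CDKs, did not pass in either genotype in the edgeR fit of all libraries. In Col their median log2 change was 0.37, 7 of 8 were above 0 and 3 had an unadjusted p under 0.05 (CYCB1;4, CYCB2;4 and CYCB3;1). In erf114 the median was -0.02 with 3 of 8 above 0. Without Col MS replicate 1 the median in Col was 0.24 and 0 of 8 had such a p. Some B-type cyclins passed in alternatives. In Col CYCB1;4 and CYCB2;3 each passed in 1 of 23 and CYCB3;1 in 2 of 22. In erf114 CYCB1;3 passed in 2 of 23, both with limma (-0.48, adjusted p = 0.0182 on log2(FPKM + 1)). CYCB1;1, widely used as a marker of G2 and mitosis, was at 4.41, 6.39 and 4.72 FPKM in Col on MS and at 4.50, 5.85 and 6.11 after MeJA, and at 5.95, 7.27 and 5.46 in erf114 on MS and 4.47, 6.79 and 4.60 after MeJA. The groups overlapped throughout and the log2 change was 0.16 (95% interval -0.24 to 0.55) in Col and 0.06 (-0.33 to 0.45) in erf114.

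CDC20.1 (AT4G33270, chr4:16044169-16046937), which activates the APC/C at anaphase, was at 32.50, 38.38 and 32.62 FPKM in Col on MS and at 20.84, 25.50 and 21.66 after MeJA. In erf114 it was at 28.95, 36.77 and 26.73 on MS and at 18.96, 21.12 and 15.83 after MeJA. Within each genotype every MeJA library was below every MS library. The log2 change was -0.54 ± 0.13 in Col (adjusted p = 0.00862, edgeR) and -0.43 ± 0.13 in erf114 (adjusted p = 0.0359). The call held in all 23 alternatives in Col and was lost in 11 of 23 in erf114. Its neighbour CDC20.2 (chr4:16041006-16043549) had a change of -0.19 in Col and -0.41 in erf114 (adjusted p = 0.0912). With the replicate number as a block over all 12 libraries it passed in erf114 (-0.41, adjusted p = 0.00767) and for the mean of both genotypes (-0.30, adjusted p = 0.00392), although same-numbered libraries did not deviate together for MeJA in erf114. Estimated counts of both genes were fractional in all 12 libraries, as happens where reads are shared between near-identical copies, so the division of the fall between them is uncertain. CDC27a, an APC/C subunit, was at 1.1 to 2.83 FPKM and did not pass.

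**Figure D5:**
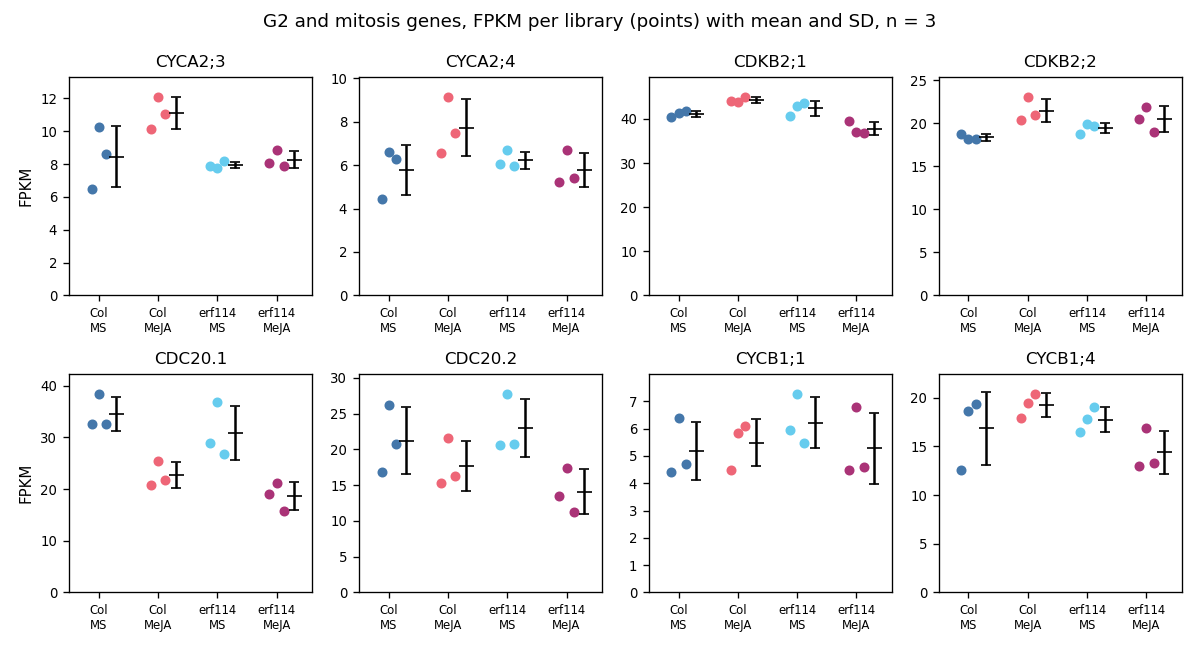
Deposited FPKM (y axis) of 8 G2 and mitosis genes in each library, by group (x axis), with the mean and SD (n = 3) beside the points. CDC20.1 is lower after MeJA in both genotypes, CYCA2;4 overlaps in Col only through 1 pair of libraries at 6.6 and 6.55, and CYCB1;1 overlaps in all groups.

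Of the 10 members not tied to 1 phase, the gene named CDC25 fell in Col. It was at 144.3, 122.6 and 115.8 FPKM in Col on MS and at 78.95, 91.00 and 79.17 after MeJA, and at 122.6, 124.0 and 120.8 in erf114 on MS and 88.08, 76.92 and 99.26 after MeJA. In FPKM the groups were apart in both genotypes. The log2 change was -0.59 ± 0.19 in Col (adjusted p = 0.0467, edgeR) and -0.14 ± 0.19 in erf114 (adjusted p = 0.724), where limma on log2(FPKM + 1) gave -0.48 (adjusted p = 0.00751). The test of the difference between genotypes gave 0.45 ± 0.27 (adjusted p = 0.637, edgeR), so the responses were not shown to differ. The call in Col was lost in 11 of 23 alternatives. Among them, without Col MS replicate 1 the change in Col was -0.33 with an adjusted p of 0.179. With the replicate number as a block over all 12 libraries it was -0.57 with an adjusted p of 0.0512. CDKC2, a kinase of the transcription machinery, passed in edgeR only as the mean of both genotypes (-0.21 ± 0.07, adjusted p = 0.0453). This call was lost in 11 of 22 alternatives, and limma on log2(FPKM + 1) called the gene in erf114 (-0.53, adjusted p = 0.0207). It was at 32.62, 46.94 and 39.19 FPKM in Col on MS, 31.18, 35.06 and 33.76 in Col after MeJA, 40.16, 44.88 and 43.28 in erf114 on MS and 30.75, 34.66 and 23.59 in erf114 after MeJA. The groups overlapped in Col and were apart in erf114. CDKC;1, its paralogue, had changes of -0.13 in Col and -0.08 in erf114. This kinase, the Mediator kinase CDKE;1 and the CDK-activating kinases CDKD1;1 and CDKD1;3 did not pass in any contrast. Nor did the CDC48 family and the MYB-domain splicing factor CDC5 in the edgeR fit of all libraries. Limma on log2(FPKM + 1) called CDC48 for the mean of both genotypes (-0.20, adjusted p = 0.0442).

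Between the genotypes no member passed. On MS the edgeR count was 0 of 64, with 1 member at an unadjusted p under 0.05 (CDC20.1, -0.28 ± 0.13), against 0.0327% of all genes passing (0.0109% higher and 0.0218% lower) and 3.82% at such a p. FPKM ranges on MS were apart for 5 members, 4 higher and 1 lower in erf114, against 9.67% of all genes, of which 1367 were higher and 405 lower. After MeJA it was 0 of 64 with 7 members at an unadjusted p under 0.05, against 0.382% of all genes passing (0.327% higher and 0.0546% lower) and 8.58% at such a p. For the interaction of genotype and MeJA it was 0 of 64 with 2 such members (KRP5 and CYCA3;2), against 0.0273% passing and 6.04% at such a p. With a change of at least 2-fold 0.24% of all genes passed after MeJA. DESeq2 and limma also called 0 members in each of these 3 contrasts. Of the 7 members after MeJA, KRP5 was higher in erf114 (0.47 ± 0.15) and CYCD1;1 (-0.27 ± 0.09), CYCA2;3, CYCA2;4, CYCB1;4, CYCB2;4 and CDKD1;1 had negative values down to -0.52, with adjusted p-values from 0.378 to 0.57.

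After MeJA 48 of the 64 members had a fitted value below 0 in erf114 against Col, with a median of -0.16 against 0.01 for all genes. Among them were all 19 replication members (-0.41 to -0.03) and 15 of the 18 G2 and mitosis members. FPKM ranges were apart for 15 members, all lower in erf114, against 17.4% of all genes, of which 2379 of 3194 were lower. On these unscaled values the median gene was at -0.11 in limma. Without erf114 MeJA replicate 3 the replication median was -0.08, against -0.20 with it, and 16 of 19 were below 0. These values share the erf114 MeJA libraries, in which the summed meristem markers lay at 46.8 to 59.5 unscaled FPKM against 60.1 to 62.2 in Col after MeJA. On the TMM scale the markers SCR, SHR and PLT1 had log2 values of 0.14, 0.09 and 0.003 in erf114 against Col. The others, PLT2, PLT3, BBM, WOX5 and RGF1, lay between -0.73 and -0.20, and no marker passed. The part of meristem content in the result was not tested.

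Genes of the same processes outside the symbol pattern were also counted, beside the 22% of all genes that passed in Col, the 18.8% in erf114 and the 29.2% for the mean. Of 17 S-phase genes (the retinoblastoma protein RBR1, DP and CDT1 factors, PCNA, ribonucleotide reductase and GINS genes among them) 0 passed in Col or in erf114 by edgeR, with 2 and 1 at an unadjusted p under 0.05, and RNR2A, a ribonucleotide reductase subunit, rose by 0.37 as the mean of both (adjusted p = 0.0238). Of 22 mitosis and cytokinesis genes 3 passed in Col. They were the kinase AUR3 (0.64) and the syntaxin KN of the cell plate (0.50), which rose, and the kinase AUR2 (-0.51), which fell. In erf114 only WEE1, a kinase that restrains CDKs after replication stress, passed in that list (-0.72, adjusted p = 0.0154). None of 7 DNA damage response genes passed by edgeR in any of the MeJA contrasts, with 0 in Col, 1 in erf114 and 1 for the mean at an unadjusted p under 0.05. Of 6 endocycle genes SIM, a CDK inhibitor that promotes endoreduplication, fell in Col (-0.69, adjusted p = 0.0324) and had 0.07 in erf114. The interaction of genotype and MeJA was 0.76 ± 0.29 for SIM, -0.63 ± 0.26 for WEE1, -0.72 ± 0.24 for AUR3 and -0.65 ± 0.22 for KN. Each had an adjusted p of 0.6375 (edgeR), so these responses were not shown to differ between genotypes. Of the 8 meristem markers only PLT3, a stem cell niche factor, passed in Col, where it was higher. Among the others, SHR (-0.41), SCR (-0.39), PLT1 (-0.27) and BBM (-0.18) had fitted values below 0 in Col. PLT2 (0.37), WOX5 (0.28) and RGF1 (0.80) had values above 0.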

How the data were processed

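RNA was extracted from roots with a commercial total RNA kit, per the labels' protocols. The authors deposited, per library, estimated counts, TPM and FPKM for each gene. Aligner, counter and genome build: not given in the sources used here. Estimated counts were rounded (1.542 to 1.718% were fractional), genes a library did not list were taken as 0, and the deposited TPM values were not tested. All 23719 identifiers matched TAIR10.1, which gave symbols, lengths, coordinates and promoters.

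Genes with FPKM of at least 1 in 3 libraries (18326) were tested with edgeR 4.0.16 in R 4.3.3 (TMM, 4 group means, 8 residual degrees of freedom, quasi-likelihood test, Benjamini-Hochberg adjustment over all of them, threshold 0.05). The biological coefficient of variation was 17.9%. The script was tested on simulated data. Alternatives used DESeq2 1.42.0, limma 3.58.1 on log2(FPKM + 1) or log2(FPKM + 0.1), other filters and scaling, a replicate block, left-out libraries and, chosen after seeing the data, a correction of each library's trend with transcript length. Same-numbered libraries deviated together for MeJA in Col (r = 0.43, 0.41 and 0.23) and for genotype on MS (0.21, 0.19 and 0.29), although no label states what same-numbered libraries share. The other contrasts were not paired by this rule. No 2 replicates matched within sampling noise (chi-square per gene 7.4 to 64.2). All members could be named, with every library's values for those that passed. Members and lists were chosen with earlier results of these data known. TPX2 (whose symbol names another gene), BUB1, RGI1, BRN1 and BRN2 were not analysed here.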

Additional observations from a re-analysis of the deposited data

How the results depend on the processing

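CYCD1;1 and CYCD3;1 passed in all alternatives of all 3 MeJA contrasts, and CDC20.1 did so in Col and in the mean of both genotypes. Counts of members called in erf114 rose from 5 to 15 with limma on log2(FPKM + 1) and to 15 with a pseudocount of 0.1, and fell to 2 with a replicate block over only the 2 groups compared. For the mean of both genotypes the count of 10 became 16 with either limma setting and 16 with the replicate block and length correction together. The unscaled FPKM behind limma carry the shift of the median gene. CDKA;1 reversed there for MeJA in erf114, from 0.02 to -0.28 (adjusted p = 0.0275) and -0.29. The cause of the other changes was not tested. Leaving out 1 library at a time gave 5 to 9 members in Col, 2 to 6 in erf114, 7 to 12 for the mean and 0 to 0 for each genotype contrast and the interaction. In erf114 the count was 3 or less without any 1 of erf114's 6 libraries, or without Col MeJA replicates 1 or 3. With the replicate block over all 12 libraries the counts were 6 in Col, 7 in erf114 and 12 for the mean, and 0 between genotypes. With the block over 2 groups it was 8 in Col. Without both libraries that stood apart the counts were 6 in erf114 and 13 for the mean. Where counts were few (24 for MCM6 in 1 library), the spread limits what could be detected.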
